A study of Homo sapiens with 12 samples.

Results

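The cytosolic ribosomal protein genes were read in the human pancreatic ductal adenocarcinoma cell lines CFPAC-1 and BxPC-3 and in their gemcitabine (GEM)-resistant derivatives, named CFPAC-1-GR and BxPC-3-GR. Members were all genes whose name was RPL or RPS followed by a number and its usual suffix, or RPLP0 to RPLP2 or RPSA, without pseudogenes and without the RPS6K kinases. The rule used names alone and gave 84 members among 58302 genes, of which 52 belong to the large subunit and 32 to the small subunit, with paralogs counted under the subunit in their name. Each line was sequenced in 3 replicates, 12 libraries in all, from total RNA, and nothing in the labels ties a replicate to a separate culture, so the p values measure the spread between these libraries. The resistant lines came from stepwise exposure to GEM, the parental lines are their unexposed controls, and the paper speaks of them as subclones without saying how many cells founded each. The labels give an epithelial morphology for BxPC-3, CFPAC-1 and CFPAC-1-GR and a mesenchymal one for BxPC-3-GR. Values are FPKM, fragments per kilobase of gene length scaled to the mapped fragments of the library, and the table gives no counts, so the depth of single values is unknown.

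The ribosome is made of ribosomal RNA and a fixed set of proteins in a large and a small subunit, and each protein of the set is needed in nearly equal number. Most of these proteins come from 1 active gene each, while the genome also holds many intron-less copies, called processed pseudogenes, that arose from their abundant messages. The messages typically start with a C followed by a run of pyrimidines, the 5′ terminal oligopyrimidine (TOP) motif, through which mTOR and LARP1 control their translation. Free RPL5, RPL11 and RPL23 are known to bind MDM2 and so to raise p53.

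The starts of members that the results turn on are shown first because the TOP motif is what most members share outside the coding region. In the promoter windows of RefSeq on GRCh38.p14, 67 of the 84 members matched a listed start by symbol. A run of at least 5 letters C or T that covered the first transcribed base, read on the gene's own strand, was present in 50 of these 67 members (74.6%) and in 3208 of 27238 other genes (11.8%). Each sequence below holds 15 bases before and 15 bases from the first transcribed base, with the run in capitals.
RPS23 (chr5:82278340-82278369, minus strand): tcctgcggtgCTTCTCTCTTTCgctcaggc
RPS24 (chr10:78033848-78033877, plus strand): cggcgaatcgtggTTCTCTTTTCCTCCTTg
RPL22 (chr1:6199581-6199610, minus strand): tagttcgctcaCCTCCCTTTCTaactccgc
RPL18 (chr19:48619164-48619193, minus strand): accccagcccgTTCTCTCTTTCCggacctg
RPS16 (chr19:39435935-39435964, minus strand): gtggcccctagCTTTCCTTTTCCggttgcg
RPL36 (chr19:5690280-5690309, plus strand): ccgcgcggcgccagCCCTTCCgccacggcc
RPS14 (chr5:150449725-150449754, minus strand): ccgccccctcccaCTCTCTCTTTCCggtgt
RPL22L1 (chr3:170870181-170870210, minus strand): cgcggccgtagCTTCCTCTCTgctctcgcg
RPS27L (chr15:63157463-63157492, minus strand): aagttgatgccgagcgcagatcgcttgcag
RPL7L1 (chr6:42879601-42879630, plus strand): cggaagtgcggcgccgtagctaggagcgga
RPL26L1 (chr5:172958714-172958743, plus strand): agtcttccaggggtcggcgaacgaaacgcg
The paralogs RPS27L, RPL7L1 and RPL26L1 have no such run at their listed start, whereas the paralog RPL22L1 has one.

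A pair of coding sequences shows how close members stand to each other and to their copies. RPL39, a small protein of the exit tunnel, and its paralog RPL39L have coding sequences of 156 bases that differ at 8 positions (94.9% identity), with the differing bases in capitals.
RPL39 (chrX:119786684-119791576, minus strand, exons joined): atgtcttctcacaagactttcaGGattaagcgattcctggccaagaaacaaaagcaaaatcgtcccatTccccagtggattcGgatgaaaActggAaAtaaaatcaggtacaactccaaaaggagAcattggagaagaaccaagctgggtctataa
RPL39L (chr3:187121145-187121300, minus strand): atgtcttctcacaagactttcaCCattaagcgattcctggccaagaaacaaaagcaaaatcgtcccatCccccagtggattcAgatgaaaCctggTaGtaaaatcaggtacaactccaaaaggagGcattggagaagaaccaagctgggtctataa
The coding sequence of RPS28, a small protein of the small subunit, has 210 bases and is letter for letter the same in the pseudogene RPS28P7 (chr11:82689559-82689768, plus strand), so no fragment that lies within it can tell them apart.
RPS28 (chr19:8321531-8322075, plus strand, exons joined): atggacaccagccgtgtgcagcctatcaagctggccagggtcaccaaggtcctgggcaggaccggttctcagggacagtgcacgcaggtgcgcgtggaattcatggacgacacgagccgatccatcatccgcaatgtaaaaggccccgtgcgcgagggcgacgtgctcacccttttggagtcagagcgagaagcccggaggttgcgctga
These coding sequences were read from the GENCODE release 29 transcripts on GRCh38.

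Much of the fragment mass of ribosomal protein messages was listed under such copies rather than under the genes. By sequence, 1834 pseudogenes matched 82 of the 84 members with an identity of at least 80%, with a median of 15 copies per member and up to 135 for RPL21. RPL39L and RPL3L had none. The share of fragments listed at the member, out of the member and its copies together, had a median of 71.3% over the 83 members with any value, lay above 90% in 28 members and below 10% in 12 members. The 25 members with a copy of at least 99% identity had a median share of 13.7%, against 86.0% for the other members with a share. Across 81 members, the share and the identity of the highest copy, the one with the highest mean FPKM, had a Spearman correlation of -0.853. This is a description across genes that share the same libraries, and the fragments of that copy also enter the share.

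**Figure D1:**
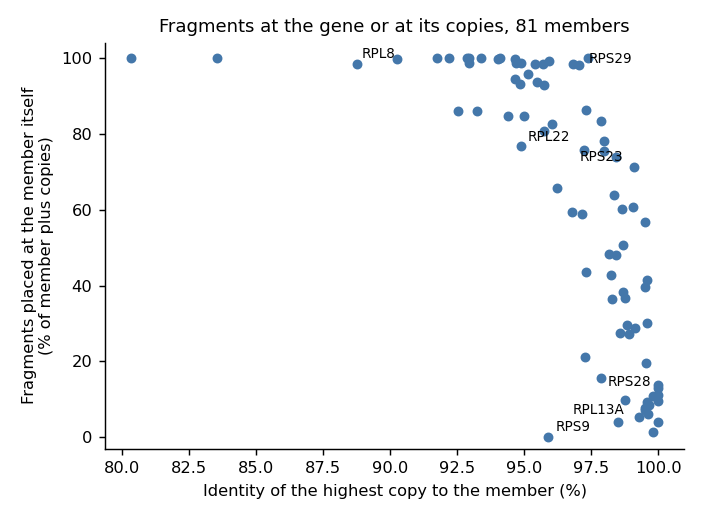
Each point is 1 of 81 ribosomal protein genes, with the identity of its copy of highest mean FPKM on the x axis (%) and the share of fragments listed at the gene rather than at its copies on the y axis (% of both, pooled over 12 libraries). Shares near 100 are common up to an identity of about 97% and fall steeply above it, and RPS9 stands at the bottom with 0.139%.

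RPS28 showed how far the row of a member can depart from its message. At the gene itself, FPKM was 11.2, 10.5 and 10.3 in BxPC-3, 16.3, 15.6 and 16.3 in its resistant line, 0.690, 0.581 and 0.729 in CFPAC-1, and 0.382, 0.384 and 0.423 in CFPAC-1-GR. The row therefore put the BxPC-3 lines far above the CFPAC-1 lines without overlap. At RPS28P7, FPKM was 400, 384 and 356 in BxPC-3, 547, 572 and 551 in its resistant line, 1289, 1211 and 1170 in CFPAC-1, and 406, 499 and 439 in CFPAC-1-GR. The copy held the larger part in every library and put CFPAC-1 highest, the opposite order for the parental lines. RPL13A, a large subunit protein, averaged 31.8 ± 1.05 FPKM in BxPC-3 (SD, n = 3) and 59.7 ± 5.88 in CFPAC-1, while its copy RPL13AP5, with 99.5% identity, averaged 1440 ± 115 and 2820 ± 376. RPS9, a small subunit protein next to the mRNA entry site, was listed between 0 and 0.151 FPKM, while the copy AC011495.1 averaged 141 FPKM in BxPC-3 and 602 FPKM in CFPAC-1. How fragments that match several places were assigned is not given in the sources used here, so the level of such members cannot be told apart from that of their copies.

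Between members, levels spanned a wide range although FPKM is scaled by length. Over the 12 libraries, 81 members averaged at least 1 FPKM, with a median of 47.5 and a range from 1.60 to 377. RPL11 (377 FPKM), RPS12 (285), RPL35 (254), RPS4X (248) and RPL5 (223) were the highest rows. At the other end stood RPL10L, listed at 0 in all 12 libraries, RPS9, RPL3L, RPS27L (1.60 FPKM) and RPL22L1. RPL3L, the paralog of RPL3 known from heart and skeletal muscle, did not exceed 0.0922 FPKM, and RPL10L is the testis paralog of RPL10. Replicates of a line differed in a member by a median coefficient of variation of 7.17% in BxPC-3, 5.48% in BxPC-3-GR, 9.60% in CFPAC-1 and 7.88% in CFPAC-1-GR. RPL29 was the least steady member in CFPAC-1, CFPAC-1-GR and BxPC-3-GR, with 40.9, 20.9 and 83.9 FPKM in CFPAC-1, and RPL7L1 was in BxPC-3 (43.6%). RPL29 was called in neither resistant line.

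The members' share of a library ordered the 4 lines, with CFPAC-1 at the top and BxPC-3 at the bottom. Of the summed FPKM of a library, members made up 1.34% to 1.52% in BxPC-3 and 1.70% to 1.75% in BxPC-3-GR. They made up 2.71% to 3.05% in CFPAC-1 against 1.92% to 2.12% in CFPAC-1-GR, so the ranges of the 4 lines did not overlap. The copies took 8.0% to 8.69%, 10.3% to 11.1%, 17.0% to 20.4% and 10.5% to 11.5% in the order of BxPC-3, its resistant line, CFPAC-1 and its resistant line. Only the ranges of the copies in both resistant lines overlapped. A share depends on everything else in a library, and in bulk RNA a change per cell cannot be told apart from a change in what surrounds it. Transcripts encoded by mitochondrial DNA made up 37.2% to 40.4% of that sum in BxPC-3, 37.4% to 39.9% in BxPC-3-GR and 27.2% to 28.9% in CFPAC-1-GR, but 6.77%, 12.3% and 13.1% in CFPAC-1. With these left out, members averaged 2.36% in BxPC-3, 2.80% in BxPC-3-GR, 3.19% in CFPAC-1 and 2.80% in CFPAC-1-GR. The ratio of the resistant to the parental mean thus stayed at 1.18 for BxPC-3-GR (1.19 with them), while it was 0.876 for CFPAC-1-GR (0.705 with them).

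**Figure D2:**
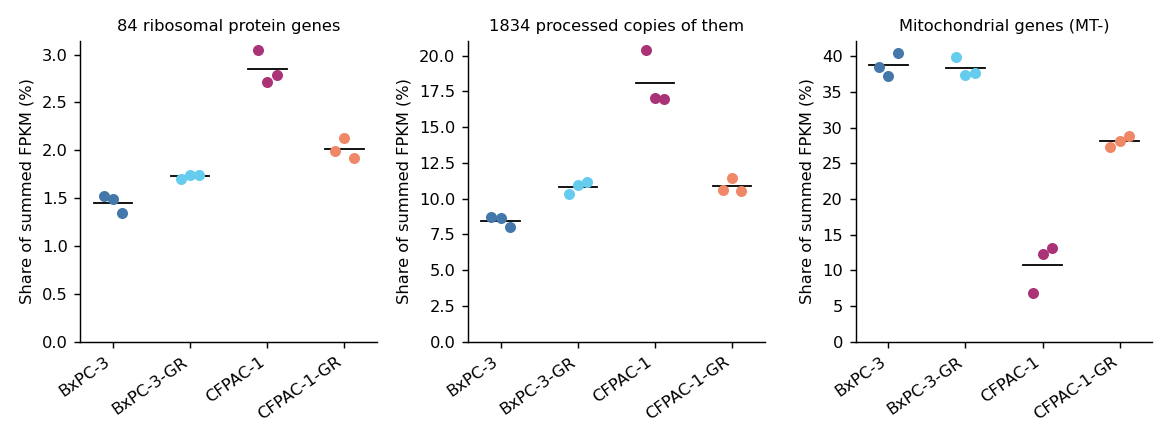
Points are the 12 libraries by line, and the y axes give the share of summed FPKM (%) taken by the members, by their copies and by mitochondrially encoded genes, with lines at the means. Members run from 1.34% at the lowest BxPC-3 library to 3.05% at the highest CFPAC-1 library, and replicate 1 of CFPAC-1, with 6.77% mitochondrial, also has the highest share of copies.

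All 7 epithelial and ductal markers (EPCAM, CDH1, KRT7, KRT8, KRT18, KRT19 and SOX9) averaged at least 1 FPKM in every line, with summed levels of 843 to 922 in BxPC-3, 951 to 1019 in BxPC-3-GR, 2691 to 2963 in CFPAC-1, with CFPAC-1-GR at 1193 to 1390. Of 6 mesenchymal markers, 3 reached that level in BxPC-3-GR, the line labelled mesenchymal. The sum of all 6 was 37.4 to 39.5 there, against 51.9 to 57.5 in BxPC-3. By their means, SNAI2, the highest of them, was lower in BxPC-3-GR (23.0 ± 0.367 against 41.2 ± 1.93 FPKM). VIM was lower as well (0.813 ± 0.111 against 6.59 ± 0.937 FPKM). CDH2 (5.396 ± 0.830 against 1.99 ± 0.386) and FN1 (9.09 ± 0.256 against 5.30 ± 0.195) were higher. Of 7 markers of stroma, leukocytes and endothelium, PTPRC was listed at 0 in all libraries, and their sum was 4.43 to 5.51, 2.31 to 2.62, 31.8 to 38.8 and 14.1 to 16.3 FPKM in the same order of lines, mostly from CD68 except in BxPC-3-GR, where COL1A1 (1.09 FPKM) and CD68 (1.06) stood side by side. The part of these differences in the results was not tested.

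The parental lines were compared first, since they set the level from which each resistant line started. The paper's methods give RPMI medium for BxPC-3 and IMDM for CFPAC-1, while the labels give RPMI for all lines. If the media differed, their part cannot be told apart from that of the line. Most ribosomal protein genes were lower in BxPC-3 than in CFPAC-1. Of 81 members tested by limma on log2(FPKM + 1), 59 were lower and 7 higher at an adjusted p below 0.05, where 39.4% of all 11842 genes tested were lower and 44.8% higher. The median log2FC of members was -0.80 against 0.10 over all genes tested, and by mean FPKM CFPAC-1 was the highest of the 4 lines in 44 members and BxPC-3 the lowest in 42. With an absolute log2FC above 1 required as well, 29 members were lower and 1 was higher, where 19.8% of all genes were lower and 24.7% higher.

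RPL39L differed most among the lower members (log2FC -2.52, SE 0.127, adjusted p = 2.8e-06). It had 6.09, 7.27 and 5.01 FPKM in BxPC-3 and 43.4, 37.3 and 38.2 in CFPAC-1. Its partner RPL39 had 9.18, 10.1 and 10.1 FPKM in BxPC-3 and 10.3, 7.53 and 7.57 in CFPAC-1, groups that overlapped and were not called. The paralog thus stood above its partner's row in CFPAC-1 and below it in BxPC-3, but 13.7% of RPL39 fragments lay at the gene and the rest at copies such as RPL39P3 with 100% identity.

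RPS14, a small subunit protein of the platform, had 30.8, 34.2 and 29.5 FPKM against 173, 106 and 144 (log2FC -2.10, SE 0.175, adjusted p = 3.3e-05). These groups did not overlap. The few members higher in BxPC-3 had smaller differences apart from RPS28 (log2FC 2.81, SE 0.0621, adjusted p = 1.6e-07). With its copies added, RPS28 turned to -1.32 (adjusted p = 2.8e-06). RPL17 (chr18:49488453-49492523) had 9.38, 10.1 and 8.93 FPKM in BxPC-3 and 4.46, 5.51 and 3.86 in CFPAC-1 (log2FC 0.91, SE 0.115, adjusted p = 0.00029). The readthrough gene RPL17-C18orf32 overlaps it and averaged 0.592 FPKM in BxPC-3 and 2.51 in CFPAC-1. RPS24 (chr10:78033760-78056812) had 69.8, 65.6 and 63.7 FPKM against 44.96, 46.3 and 49.4 (log2FC 0.49, SE 0.0637, adjusted p = 0.00033), but a correction for GC content and gene length turned its value to -0.54. The same correction brought RPL17 to 0.43 and left RPL39L at -1.98 and RPS14 at -2.07, and the Spearman correlation of log2FC with GC content was -0.392 over the 81 members.

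**Figure D3:**
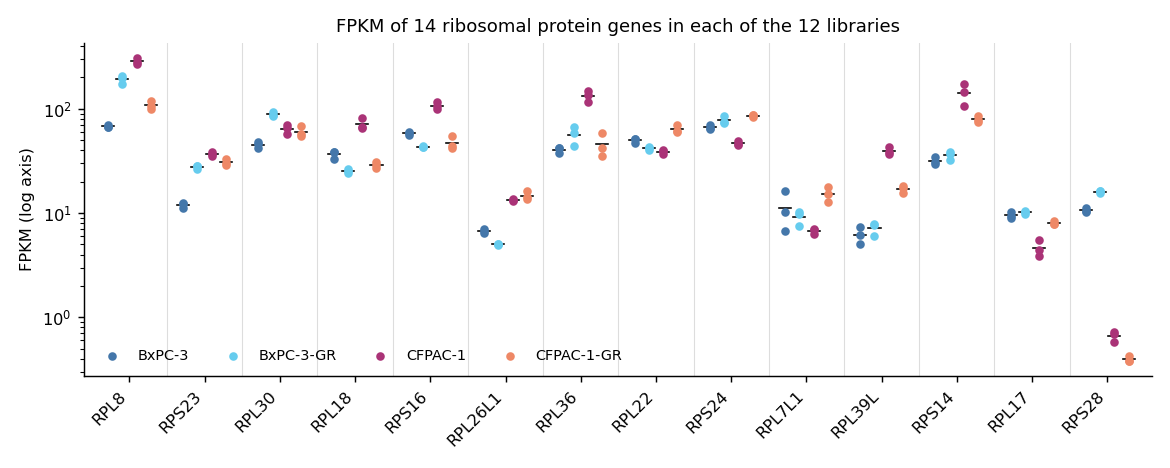
The y axis gives FPKM on a log axis for 14 ribosomal protein genes named for the largest called changes, each point is 1 of the 12 libraries coloured by line, and short bars are means of 3. By mean, CFPAC-1 is the highest line in genes such as RPL8 and RPS14, CFPAC-1-GR in others such as RPL22 and RPS24, and BxPC-3-GR in RPL30, RPL17 and RPS28. RPS28 is below 1 FPKM in both CFPAC-1 lines.

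Resistance was then read within the BxPC-3 background, BxPC-3-GR against BxPC-3. Ribosomal protein genes were mostly higher in the resistant line, by small amounts. Of 81 members, 40 were higher and 7 lower, where 26.2% of all 11710 genes tested were higher and 31.5% lower. The median log2FC was 0.26, against -0.05 over all genes tested. Past an absolute log2FC of 1 stood 2 members that were higher, RPL8 and RPS23, while no member fell by more than 0.51 on the log2 scale, where 4.14% of all genes were higher and 3.62% lower. Without that limit on size, limma called 24 large subunit members higher and 4 lower among 50, and 16 small subunit members higher and 3 lower among 31, with medians of 0.27 and 0.22. With the copies added to each member, 53 of 82 were higher and 6 lower, with a median of 0.31.

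RPL8 (chr8:144789765-144792587, minus strand), a large subunit protein near the catalytic centre, moved furthest (log2FC 1.48, SE 0.0733, adjusted p = 2.6e-05). It had 70.2, 66.8 and 66.7 FPKM in BxPC-3 and 198, 204 and 174 in BxPC-3-GR, and 98.5% of its fragments lay at the gene. RPS23 (chr5:82273358-82278577, minus strand), a small subunit protein of the decoding centre, rose from 12.1, 12.6 and 11.2 to 28.1, 26.3 and 28.2 FPKM (log2FC 1.14, SE 0.0616, adjusted p = 3.5e-05). Its highest copy, RPS23P8, was listed above the gene, with 48.3, 64.9 and 46.3 FPKM in BxPC-3 and 110, 127 and 132 in BxPC-3-GR. RPL30, a large subunit protein, rose from 46.1, 47.7 and 42.5 to 86.4, 93.9 and 85.2 FPKM (log2FC 0.95, SE 0.0676, adjusted p = 9.7e-05). In all 3 the groups stood well apart.

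The members that fell did so less. RPL18 (chr19:48615328-48619536) fell from 38.6, 38.7 and 32.9 to 24.5, 25.3 and 26.4 FPKM (log2FC -0.51, SE 0.0786, adjusted p = 0.0020). RPS16 (chr19:39433207-39435948), a small subunit protein that reaches the P site, fell from 58.4, 59.9 and 56.4 to 42.8, 42.7 and 43.9 FPKM (log2FC -0.42, SE 0.0483, adjusted p = 0.00058). The paralog RPL26L1 (chr5:172958729-172969771) fell from 7.02, 6.50 and 6.69 to 5.08, 4.97 and 5.04 FPKM (log2FC -0.36, SE 0.0488, adjusted p = 0.0012). None of these groups overlapped. RPL22, RPL41 and RPS27L were also called lower.

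The increases were uneven along the genome. The 4 members on chromosome 8, RPL7, RPL8, RPL30 and RPS20, all rose in BxPC-3-GR, with log2FC from 0.64 to 1.48 and a median of 0.87. The 397 other genes tested on that chromosome had a median of 0.42, while the medians of other genes on the other chromosomes that hold tested members lay between -0.42 and 0.00. Genes that are no members within 3 Mb had a median log2FC of 0.76 around RPL8 (62 genes), 0.37 around RPS20 (18 genes), 0.32 around RPL30 (21 genes), 0.29 around RPL7 (16 genes) and 0.50 around RPS23 (14 genes). Over all 81 members, the log2FC and the median of these neighbours had a Spearman correlation of 0.485, as a description over genes of the same libraries. The part of the neighbourhood in these increases was not tested.

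The same comparison in the other background, CFPAC-1-GR against CFPAC-1, went mostly the other way. Of 80 members tested, 46 were lower and 12 higher, where 34.9% of all 12051 genes tested were lower and 44.6% higher. The median log2FC was -0.34, against 0.13 over all genes tested. Past an absolute log2FC of 1, 17 members were lower and 1 was higher, where 11.7% of all genes were lower and 20.5% higher. Small subunit members had a median of -0.53, with 21 lower and 2 higher of 30, and large subunit members one of -0.24, with 25 lower and 10 higher of 50, a difference between subunits that was not tested. With the copies added, 52 of 82 were lower and 13 higher, with a median of -0.45.

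RPL36 (chr19:5674947-5691876), a large subunit protein, fell from 136, 115 and 148 to 42.2, 58.9 and 35.6 FPKM (log2FC -1.55, SE 0.190, adjusted p = 0.00024). The groups did not overlap. It was among the members with the largest decreases, as was RPL8 (log2FC -1.40, SE 0.0922, adjusted p = 1.4e-05), whose values are given with the difference between the lines. Genes that are no members within 3 Mb had a median log2FC of -0.84 around RPL36 (100 genes) and -0.91 around RPL8 (60 genes). This likeness was not tested.

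RPL7L1 (chr6:42879618-42889925), a paralog of RPL7 with a role in ribosome assembly, led the increases, from 6.87, 6.26 and 7.07 to 15.3, 17.95 and 12.7 FPKM (log2FC 1.07, SE 0.124, adjusted p = 0.00018). RPS24, a small subunit protein mutated in some patients with Diamond-Blackfan anemia, rose from 44.96, 46.3 and 49.4 to 83.2, 87.6 and 87.9 FPKM (log2FC 0.87, SE 0.0681, adjusted p = 2.8e-05). RPL22 (chr1:6181269-6209389), an RNA-binding protein of the large subunit that is lost in some tumours, rose from 36.9, 39.4 and 40.2 to 61.9, 70.1 and 60.2 FPKM (log2FC 0.71, SE 0.0822, adjusted p = 0.00018). These groups did not overlap either.

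GC content moved with the CFPAC-1-GR values. Among the 26 members of lowest GC content (37.4% to 44.9%), the median log2FC was 0.00, with 13 above 0 and 13 below. Among the 26 of highest GC content (50.5% to 63.7%), it was -0.97, with 1 above 0 and 25 below. The Spearman correlation of log2FC with GC content was -0.633 over 80 members and -0.779 over 11950 other genes tested, against 0.017 and 0.038 in BxPC-3-GR. With log ratios corrected for GC content and length across all genes, 47 members were lower and 8 higher in CFPAC-1-GR with a median of -0.40, where 21.6% of all genes were lower and 40.5% higher, while the number lower past an absolute log2FC of 1 went from 17 to 11. Single members changed more than the counts. RPS24 went to -0.057, RPL36 to -0.44 (adjusted p = 0.070) and RPL8 from -1.40 to -0.24. RPL7L1 went to 0.54 and was still called, and RPL22 stayed at 0.60. Among members, corrected log2FC ran the other way with GC content, with a Spearman correlation of 0.288 in CFPAC-1-GR and 0.426 between the parental lines. With length it was -0.370 and -0.351. Corrected values of single members, here and below, carry this leftover trend. The correction also removes any real difference that follows GC content, and its share in these values was not tested.

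**Figure D4:**
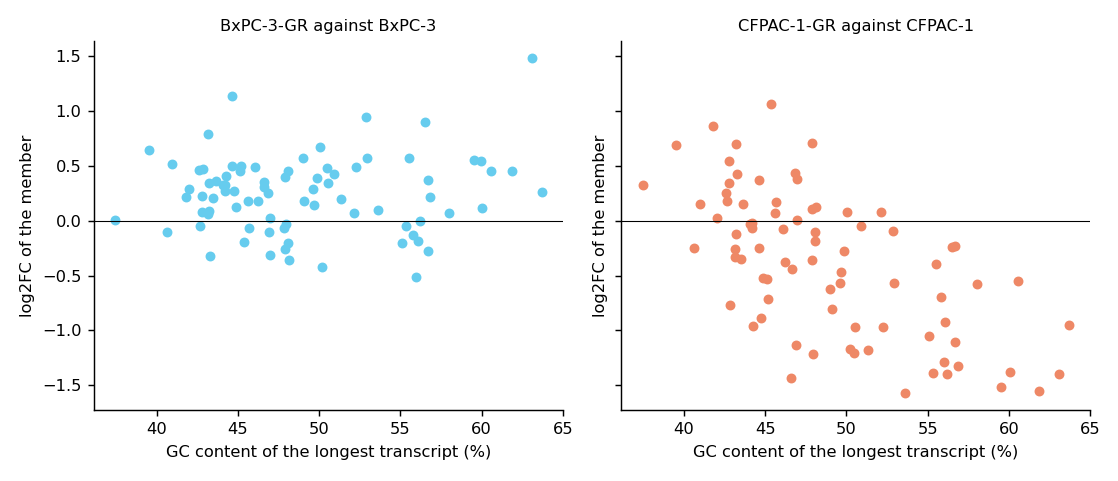
Each point is a ribosomal protein gene, with GC content of its longest listed transcript on the x axis (%) and log2FC of the resistant against the parental line on the y axis, in a panel for each resistant line. Values fall with GC content in CFPAC-1-GR (Spearman -0.633, 80 members) and show no slope in BxPC-3-GR (0.017, 81 members).

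Whether both lines responded alike was tested as the difference of their log2FC, CFPAC-1-GR minus BxPC-3-GR, over all 12 libraries. The response of CFPAC-1-GR lay below that of BxPC-3-GR for most members. Of 81 members, 54 were lower and 9 higher in this difference, where 31.6% of all 12210 genes tested were lower and 44.9% higher. The median difference was -0.65, against 0.22 over all genes tested. Past an absolute difference of 1 on the log2 scale, 26 members were lower and 1 was higher, where 14.4% of all genes were lower and 23.6% higher. Of the 80 members tested in both lines, 23 were higher in BxPC-3-GR but lower in CFPAC-1-GR, and the difference was called for all 23, as it was for every gene with these opposite calls. Of all 10393 genes tested in both lines, 9.92% were higher in BxPC-3-GR but lower in CFPAC-1-GR and 15.5% the reverse. The 23 members included RPL8, RPS12, RPS20, RPS27, RPSA and the 3 stalk members. The reverse held for 2 members, RPL22 and RPS27L. These opposite calls are without the correction for GC content and length. With it, RPLP2, RPL3 and RPS27L turned sign in CFPAC-1-GR, and RPL36 was called in neither resistant line. How many opposite calls remain with it is not reported here. RPL7, RPL26, RPL34 and RPS24 were higher in both resistant lines without the correction (5.0% of members, against 11.9% of all genes tested in both). RPL18 and RPS16 were among those lower in both (3.75% of members, against 11.3% of all genes), and 8 members were called in neither.

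RPL8 differed most (-2.88, SE 0.119, adjusted p = 8.6e-09), with 308, 281 and 269 FPKM in CFPAC-1 and 99.3, 118 and 106 in CFPAC-1-GR. Its level thus went from the lowest of the 4 lines in BxPC-3 to values above CFPAC-1-GR in BxPC-3-GR, while CFPAC-1 stayed highest. Other genes within 3 Mb had a median difference of -1.67 around RPL8 (65 genes) and -1.09 around RPL36 (98 genes). RPL36 differed by -2.004 (SE 0.269, adjusted p = 4.3e-05), with 43.7, 67.4 and 58.9 FPKM in BxPC-3-GR, where its own increase from 37.4, 42.0 and 42.2 was small (log2FC 0.45, adjusted p = 0.049, and 0.061 after the GC and length correction). In the other direction, RPL7L1 differed by 1.26 (SE 0.342, adjusted p = 0.0061), although its BxPC-3 values of 16.4, 10.3 and 6.76 FPKM overlapped those of BxPC-3-GR (9.88, 10.2 and 7.45). RPL22 differed by 0.96 (SE 0.0973, adjusted p = 4.4e-06), since it fell in BxPC-3-GR from 51.5, 51.3 and 47.4 to 40.2, 41.7 and 43.2 FPKM. RPS27L, a p53-responsive paralog of RPS27, differed by 0.75 (SE 0.0839, adjusted p = 9.6e-06). It had 1.28, 1.34 and 1.37 FPKM in BxPC-3, 0.836, 0.833 and 0.920 in its resistant line, 1.82, 1.49 and 1.65 in CFPAC-1, and 2.50, 2.76 and 2.45 in CFPAC-1-GR. After the GC and length correction the difference was 0.02 for RPS27L and 0.80 for RPL7L1 (adjusted p = 0.85 and 0.074), so both calls were lost, while RPL8 (-1.65), RPL36 (-0.84) and RPL22 (0.89) were still called.

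**Figure D5:**
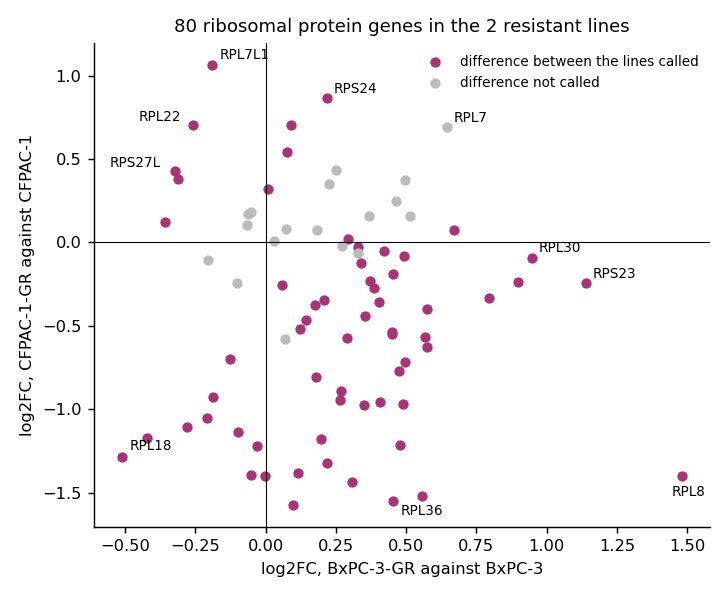
Each of 80 points is a ribosomal protein gene, with log2FC of BxPC-3-GR on the x axis and of CFPAC-1-GR on the y axis, and coloured points have a called difference between the lines. The lower right part holds the 23 members called higher in BxPC-3-GR and lower in CFPAC-1-GR, with RPL8 at its edge (1.48 and -1.40). All values are without the correction for GC content and length.

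The 3 stalk proteins, which recruit translation factors to the large subunit, were each called higher in BxPC-3-GR and lower in CFPAC-1-GR before the correction. RPLP0, its base, had 61.9, 68.2 and 50.9 FPKM in BxPC-3 and 88.1, 91.2 and 73.3 in BxPC-3-GR (log2FC 0.48, adjusted p = 0.022). In CFPAC-1 it had 233, 187 and 168 FPKM and in CFPAC-1-GR 79.1, 89.3 and 82.0 (log2FC -1.21, adjusted p = 0.00011). RPLP1, one of the dimer partners, rose by a log2FC of 0.31 (adjusted p = 0.041) in the first resistant line and fell by 1.44 on the log2 scale (adjusted p = 0.0033) in CFPAC-1-GR, with a wide spread in CFPAC-1 (429, 204 and 408 FPKM). RPLP2, the other partner, had log2FC of 0.45 in BxPC-3-GR against -0.55 in CFPAC-1-GR, and the latter became 0.53 (adjusted p = 0.00079) after the GC and length correction.

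Of the MDM2-binding members, none was called in BxPC-3-GR, whereas RPL5 and RPL11 were called higher in CFPAC-1-GR before the correction. RPL5, which carries 5S ribosomal RNA, averaged 227 ± 10.7 FPKM in BxPC-3 and 228 ± 9.44 in BxPC-3-GR (log2FC 0.01, adjusted p = 0.92), and 194 ± 6.25 and 243 ± 15.4 in the CFPAC-1 lines (log2FC 0.32, adjusted p = 0.0054, and -0.66 after the correction). RPL11, its partner on 5S ribosomal RNA, averaged 399 ± 60.2 and 322 ± 55.3 FPKM in the BxPC-3 lines (log2FC -0.31, adjusted p = 0.16). In the CFPAC-1 lines it averaged 342 and 445 FPKM (log2FC 0.38, adjusted p = 0.028, and 0.060 after the correction). RPL23 was called in neither resistant line and was higher in CFPAC-1, with 67.4, 54.2 and 81.4 FPKM, than in BxPC-3, with 31.6, 28.7 and 28.4 (log2FC of BxPC-3 against CFPAC-1 -1.15, adjusted p = 0.00030).

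Paralogs and their partners often differed in their values. RPL39L fell in CFPAC-1-GR to 17.2, 15.5 and 18.3 FPKM (log2FC -1.18, SE 0.0922, adjusted p = 2.7e-05, and -0.72 after the correction) and stood at 5.96, 7.68 and 7.80 in BxPC-3-GR (log2FC 0.20, adjusted p = 0.28), while RPL39 was called in no comparison. RPL26L1 fell in BxPC-3-GR as given above, where RPL26, which lies at the tunnel exit, rose from 39.7, 42.0 and 33.5 to 50.7, 53.2 and 59.4 FPKM (log2FC 0.50). RPL22L1, which can stand in for RPL22, averaged 2.04, 1.91, 1.46 and 1.87 FPKM in BxPC-3, its resistant line, CFPAC-1 and its resistant line, with no call. RPL7 averaged 15.4, 24.7, 11.5 and 19.2 FPKM in that order, higher in both resistant lines by 0.64 and 0.69 on the log2 scale, with a difference of 0.05 (adjusted p = 0.64). After the correction its value in CFPAC-1-GR was -0.14 (adjusted p = 0.092) and the difference -0.80 was called. RPS27, the partner of RPS27L, had a log2FC of 0.45 in BxPC-3-GR against -0.54 in CFPAC-1-GR, opposite in sign to its paralog in both, but RPS27L turned to -0.38 in CFPAC-1-GR after the correction. RPL3, which lies near the catalytic centre, had 0.57 and -0.40, and RPL10, which joins late in assembly, had 0.49 and -0.97, and both differed between the lines (-0.97 and -1.45). The value of RPL3 in CFPAC-1-GR became 0.16 after the correction and its difference was no longer called (adjusted p = 0.13).

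Members with and without the pyrimidine run at their listed start were set side by side. The run is a rough stand-in for the TOP motif, since no C was required at the first base and each start is the listed one. A member without the run, such as RPL4, RPL32 or RPS28, can thus still have a TOP message. In BxPC-3-GR, 49 tested members with the run had a median log2FC of 0.27 and 16 without it one of 0.15. In CFPAC-1-GR the medians were -0.40 over 49 members and -0.08 over 15, and the ranges of both sets overlapped widely in each line. These values and those of all lists below are without the correction for GC content and length, whose part in them was not tested. Of 22 other genes with TOP messages, mostly translation factors, 13 were higher and 2 lower in BxPC-3-GR (median 0.27), and 9 were higher and 8 lower in CFPAC-1-GR (median 0.13). These are 59.1% and 9.09% in BxPC-3-GR, against 26.2% and 31.5% of all genes, but 40.9% and 36.4% in CFPAC-1-GR, close to the 44.6% and 34.9% of all genes, whose median was 0.13 as well. EIF3H, an initiation factor subunit encoded on chromosome 8, rose most in BxPC-3-GR, from 15.4 ± 2.11 to 36.6 ± 6.17 FPKM (log2FC 1.19, adjusted p = 0.00079), and EIF3F, another subunit, fell most (log2FC -0.64). In CFPAC-1-GR, EIF3E rose most (log2FC 1.37) and FAU, which encodes the small subunit protein eS30 fused to a ubiquitin-like part, fell most, from 58.7 ± 8.37 to 21.5 ± 1.23 FPKM (log2FC -1.40, adjusted p = 2.9e-05).

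Ribosome biogenesis genes, which make and assemble the subunits, went opposite to the members in BxPC-3-GR. Of 41 rows tested for 40 genes (EMG1 has 2 rows), 37 were lower by limma and none had a log2FC above 0, with a median of -0.82, so that 90.2% were lower against 31.5% of all genes. MRTO4, a factor of large subunit assembly, fell furthest, from 47.1 ± 4.12 to 15.1 ± 1.99 FPKM (log2FC -1.58, adjusted p = 9.4e-05), and BOP1 had the value closest to 0 (log2FC -0.08, adjusted p = 0.68). BOP1 lies on chromosome 8 within 3 Mb of RPL8, and the part of that neighbourhood in its values was not tested. In CFPAC-1-GR, 18 were higher (43.9%) and 14 lower (34.1%), shares close to those of all genes (44.6% and 34.9%), with a median of 0.15 against 0.13, from NOP58, a core protein of box C/D snoRNPs (log2FC 2.24, 5.39 ± 0.391 to 29.2 ± 0.839 FPKM), to BOP1 (log2FC -1.97, 49.7 ± 0.565 to 11.97 ± 0.967 FPKM). In the difference between the lines, 31 were higher (75.6%, against 44.9% of all genes) and 5 lower (12.2%, against 31.6%), with a median of 1.08, opposite in sign to the members' median of -0.65. That difference followed GC content over 12103 genes that are no members (Spearman -0.698), and the list was not corrected for it.

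The lists that follow are read against all genes, of which 26.2% were higher and 31.5% lower in BxPC-3-GR, and 44.6% and 34.9% in the other resistant line. Of 16 genes listed for TOP regulation and the mTOR pathway, a list that also held MYC and MDM2, 9 were lower (56.3%) and 1 higher (6.25%) in BxPC-3-GR. RPTOR, the mTORC1 scaffold, fell from 5.95 ± 0.427 to 1.60 ± 0.155 FPKM (log2FC -1.42, adjusted p = 2.9e-05), and MDM2 was the gene called higher (log2FC 0.17, adjusted p = 0.047). In CFPAC-1-GR, 9 were higher (56.3%) and 6 lower (37.5%), led by LARP4 (log2FC 1.97), which binds poly(A) and stabilises messages, and by EIF4EBP1 (log2FC -1.60, 222 ± 6.81 to 72.9 ± 6.30 FPKM), the repressor of eIF4E. Of 10 tested snoRNA host genes, whose introns carry the guides for ribosomal RNA modification, 3 were higher and 2 lower in BxPC-3-GR (30% and 20%), with SNHG6, on chromosome 8, rising most (log2FC 1.20) and EPB41L4A-AS1 falling most (log2FC -0.60). In CFPAC-1-GR, 3 of 8 were higher and 3 lower (37.5% each), from SNHG1 (log2FC 1.08) to SNHG7 (log2FC -0.43). The proteins of the mitochondrial ribosome, encoded by separate nuclear genes, were mostly lower in BxPC-3-GR, 46 of 76 (60.5%) against 5 higher (6.58%, median -0.37), from MRPL58 (log2FC -1.14) to MRPL13, on chromosome 8 (log2FC 0.65). In CFPAC-1-GR 34 of 77 were lower (44.2%) and 21 higher (27.3%, median -0.21), from MRPL28 (log2FC -1.82) to MRPS10 (log2FC 1.12). The cytosolic and the mitochondrial sets thus had medians of opposite sign in BxPC-3-GR and of the same sign in CFPAC-1-GR.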

How the data were processed

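RNA of both parental lines and of the resistant line derived from each was measured in 3 libraries per line. The authors deposited a table of FPKM values for 58302 genes. The submitters' processing notes name Trimmomatic 0.27, FastQC 0.10.1 and TopHat2 2.0.8 with the builds hg19 and GRCh38, and the paper's methods give GRCh38 with Ensembl release 91 and DESeq2 as the authors' test. The counting program, the gene lengths used and the treatment of fragments that match several places are not given in the sources used here. All 12 columns of values were used.

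Each comparison was fitted with limma 3.58.1 in R 4.3.3 (lmFit and eBayes, without a block) on log2(FPKM + 1), keeping genes whose mean over the fitted libraries reached 1 FPKM, with Benjamini-Hochberg adjustment over all of them and calls at an adjusted p below 0.05. A fold change on this scale understates the change of low genes. The difference of response was the interaction over 12 libraries. With 3 libraries against 3, an exact permutation test of a single gene cannot go below 0.1, which is why the variance pooled across genes by limma was used. The procedure was tested on simulated data.

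GENCODE release 29 gave types, lengths and GC contents, and 69 members had the same coordinates there. GC content is that of the longest listed transcript of a gene, which need not be its main message, and length is that of its joined exons. Coordinates of genes are those of the table. Copies were pseudogenes of at least 80% identity over at least 90% of their length by BLAST 2.17.0. Of 1130 pseudogenes named after members, 941 were matched this way. The share of fragments at a member was FPKM times joined exon length over the sum for the member and its copies. Promoter starts came from RefSeq on GRCh38.p14. Python 3.11.15 with numpy 2.4.6 and matplotlib 3.10.9 served for descriptions and plots.

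Members and lists were chosen with earlier results of these data known. Named members were the 3 largest increases and decreases in each comparison among called members whose groups did not overlap (for the difference of response, among called members), the 5 highest and 5 lowest by mean FPKM, the paralogs with their partners, the stalk and the MDM2-binding members, and for each other list the extremes in each resistant line. Some members that this rule picks are not reported here. RPL13A, RPL29, RPL34, RPS20 and the members listed by call were named after their values were seen. Alternatives were a pseudocount of 0.1, no filter, scaling of the libraries to equal sums or by median of ratios, a single fit of the 12 libraries, a replicate block, a correction by splines of 5 degrees of freedom on GC content and length (also with the block), members summed with pseudogenes of their name, and each library left out in turn. Sums with copies matched by sequence, alone and with the correction, were added after the values were seen.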

Additional observations from a re-analysis of the deposited data

Results flagged for a closer look

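The following results stood out because the effect of resistance differed between both cell lines by the interaction test of limma over 12 libraries. Of 81 members, 9 had a higher and 54 a lower response in CFPAC-1-GR than in BxPC-3-GR. Members with large differences were RPL8 (-2.88) and RPL36 (-2.004) on the lower side and RPL7L1 (1.26), RPL22 (0.96) and RPS27L (0.75) on the higher side, all as differences of log2FC. The calls of RPL7L1 and RPS27L were lost with the correction for GC content and length.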

How the results depend on the processing

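Leaving out each library in turn changed no call of the members named for the largest changes and moved no count of calls at an adjusted p below 0.05 beyond 1.5 times: members higher and lower ranged over 33 to 36 and 5 to 7 in BxPC-3-GR, for CFPAC-1-GR 11 to 12 and 36 to 47, 9 to 10 and 51 to 57 in the difference, and 6 to 10 and 55 to 60 in BxPC-3 against CFPAC-1. The 1 member higher by more than 1 on the log2 scale became 0 in CFPAC-1-GR without CFPAC-1-GR replicate 2. In the difference it became 0 without BxPC-3 replicate 1 and 2 without BxPC-3 replicate 3 or CFPAC-1-GR replicate 3, and between the parental lines 2 without CFPAC-1 replicate 2. Replicate numbers did not pair the samples (correlations of deviations between -0.14 and 0.096). With the replicate number as a block, 35 members were higher and 5 lower in BxPC-3-GR, for CFPAC-1-GR 12 and 43, 9 and 53 in the difference, and 8 and 59 between the parental lines. Own numbers correlated best for 4, 0 and 2 of 6 libraries.

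Of 222 counts and medians under the alternatives, 206 stayed close to the reported value and 16 moved, none with a change of direction. Scaling by median of ratios moved the median of all genes in CFPAC-1-GR from 0.13 to 0.00 and gave 7 members higher and a median of -0.49 there, 5 higher and a median of -0.95 in the difference, and a median of -0.93 between the parental lines, where equal library sums gave -0.95. The GC and length correction gave 5 higher in the difference and a parental median of -0.58, also with the block (-0.58). Adding pseudogenes by name gave medians of -0.54 in CFPAC-1-GR and -0.86 in the difference, and adding copies by sequence -0.45 and -0.83. Both copies and correction gave 0.34 in BxPC-3-GR, -0.75 in the difference and -0.61 between the parental lines.

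Among the members named for the largest changes, direction changed for RPS24 in CFPAC-1-GR (-0.057 with the correction, -0.057 with the block as well, -0.070 with copies as well) and between the parental lines (-0.54, -0.54 and -0.59), and for RPS28 between the parental lines (-1.65 with pseudogenes by name, -1.32 with copies by sequence, -0.20 with the correction as well). Beyond the correction and the copies themselves, the cause was not tested. Over all members, the correction turned the sign for 24 of 80 in CFPAC-1-GR (12 of them called before it, among these RPLP2, RPL5, RPL3, RPL7 and RPS27L, and 5 called on both sides), for 15 of 81 in the difference, 13 of 81 between the parental lines and 2 of 81 in BxPC-3-GR. RPS9, RPL3L and RPL10L were too low to test, and RPS9 was tested only with its copies added.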

Other observations

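The members were also compared with 12129 other genes that averaged at least 1 FPKM, matched copies included. The 5 whose log2(FPKM + 1) followed the mean of the members most closely over the 12 libraries were no copies. They were ACTR1B, a subunit of dynactin (Pearson r 0.988), C6orf106 (0.986), GADD45B, a stress-induced gene (0.985), ENKD1 (0.984) and ADPRHL2, an ADP-ribosylhydrolase (0.984). The 12 libraries fall into 4 lines, so these values describe likeness of pattern across lines and were not tested.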
